A study of Mus musculus with 11 samples.

Results

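The chemokines and chemokine receptors were examined across 4 mouse genotypes in bulk RNA-seq of libraries labelled cerebellar hemisphere. Members were taken by symbol, as every row of the count table named Ccl, Cxcl, Ccr or Cxcr followed by a number, together with Cx3cl1 and the atypical receptors Ackr1, Ackr3 and Ackr4. This gave 56 of 22609 rows. They comprised 24 CC ligands, 13 CXC ligands, the single CX3C ligand, 11 CC receptors and 7 CXC receptors. The 3 Ackr symbols do not occur in the table, and Ackr3 is present under its older symbol Cxcr7. The older names of Ackr1 and Ackr4 (Darc and Ccrl1) fall outside the naming rule and were left out. Of the 56 rows, 38 had at least 10 counts over all libraries and were tested, and 18 had fewer and are given as not expressed at this depth.

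The study deleted Neurofascin 186 (NF186, a product of Nfasc) and Ankyrin G (AnkG, the product of Ank3), which assemble the axon initial segment, alone or together. Controls carried floxed NfascFx/Fx;AnkGFx/Fx alleles without Cre (n = 3), according to the series design. NFKO mice were Pcp2-Cre;NfascFx/Fx (n = 3), AnkGKO mice Pcp2-Cre;AnkGFx/Fx (n = 2), and DKO mice Pcp2-Cre;NfascFx/Fx;AnkGFx/Fx (n = 3). The study used Pcp2-Cre to drive recombination mainly in Purkinje cells. A whole-tissue library reports on all cells of the dissected tissue together, deleted or not. All animals were untreated littermates of mixed sex and mixed C57BL/6J;129 background, aged 30 or 32 postnatal days depending on the label. In bulk RNA, fewer cells of a type and less RNA per cell cannot be told apart.

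Library depth ranged from 38890851 to 55822361 counts assigned to genes, so that 3 counts, the upper limit that a count of 0 allows, corresponded to 0.0546 to 0.078 CPM (counts scaled to library size). Intervals and limits drawn from counts cover counting error only. Ank3 was at 156 to 200.1 CPM in the 5 AnkGKO and DKO libraries and at 353 to 407 CPM in the other 6, whereas whole-gene Nfasc counts did not separate NFKO from control. The tissue label was not borne out by its markers in most libraries. Pcp2, a Purkinje cell gene, reached 26.3 and 28.3 CPM in control 1 and NFKO 1 but at most 2.14 CPM in the other 9 libraries, and the granule cell gene Gabra6 reached 84.2 and 59.0 CPM against at most 4.41 CPM. In the 5 libraries with low Ank3, Pcp2 was only at 0.103 to 0.374 CPM. Which cells had less Ank3 was not tested. The 12 listed caudal Hox genes summed to 395 to 615 CPM in every library. Skeletal muscle genes stood at 393 CPM in NFKO 2 and 172 CPM in DKO 2 and at no more than 73.4 CPM elsewhere. Xist, the RNA of the inactive X chromosome in female cells, was at 459 to 598 CPM in control 1, control 2, DKO 2 and DKO 3, at 28.4 CPM in DKO 1 and at most 1.39 CPM in the other 6 libraries, which included all NFKO and AnkGKO libraries. By this marker sex was uneven between the single knockouts and the other genotypes. Differences along that line cannot be fully told apart from differences of sex.

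Chemokines are small secreted proteins that guide leukocytes and some neural cells along concentration gradients by binding G protein-coupled receptors. They are grouped as CC, CXC or CX3C by the spacing of conserved cysteines, and several ligands usually share a receptor. In the nervous system, neuronal Cx3cl1 (fractalkine) signals to microglia, Cxcl12 from vessels, meninges and neurons signals through Cxcr4 and is scavenged by Cxcr7 (Ackr3), and CC ligands such as Ccl3 and Ccl4 are made by activated microglia.

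The 250 bases before the start site are shown for the 4 members with the clearest differences among genotypes and a sequence in the promoter table, namely Ccl3 and Ccr6, which passed the test over the 4 genotypes, and Cxcl12 and Cxcl13, which ranked first by p-value for the interaction of the knockouts. Sequences are from RefSeq on GRCm38.p6, 5′ to 3′ on the gene's strand, and Ccr6 has 2 annotated start sites. Capitals mark matches on either strand to the motifs searched.
Ccl3, chr11:83649379-83649628, minus strand: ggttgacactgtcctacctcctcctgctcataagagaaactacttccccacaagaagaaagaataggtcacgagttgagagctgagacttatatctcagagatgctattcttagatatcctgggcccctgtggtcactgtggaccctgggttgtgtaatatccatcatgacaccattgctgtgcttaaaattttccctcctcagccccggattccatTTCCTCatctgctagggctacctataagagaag
Ccr6, chr17:8235793-8236042, plus strand: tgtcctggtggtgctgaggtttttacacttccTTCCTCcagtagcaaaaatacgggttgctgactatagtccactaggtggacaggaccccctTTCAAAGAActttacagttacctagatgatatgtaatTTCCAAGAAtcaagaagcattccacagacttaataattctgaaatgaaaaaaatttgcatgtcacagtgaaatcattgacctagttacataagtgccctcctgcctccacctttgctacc
Ccr6, chr17:8242276-8242525, plus strand: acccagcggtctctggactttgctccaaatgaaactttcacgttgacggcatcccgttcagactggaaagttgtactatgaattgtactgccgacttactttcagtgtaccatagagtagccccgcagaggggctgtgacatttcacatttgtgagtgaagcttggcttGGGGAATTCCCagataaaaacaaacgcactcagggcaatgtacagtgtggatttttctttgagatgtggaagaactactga
Cxcl12, chr6:117168285-117168534, plus strand: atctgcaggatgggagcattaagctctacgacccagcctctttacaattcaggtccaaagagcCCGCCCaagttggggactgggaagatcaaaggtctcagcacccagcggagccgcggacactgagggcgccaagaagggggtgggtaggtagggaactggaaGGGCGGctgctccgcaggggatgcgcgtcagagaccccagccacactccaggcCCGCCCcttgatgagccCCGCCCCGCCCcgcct
Cxcl13, chr5:95956689-95956938, plus strand: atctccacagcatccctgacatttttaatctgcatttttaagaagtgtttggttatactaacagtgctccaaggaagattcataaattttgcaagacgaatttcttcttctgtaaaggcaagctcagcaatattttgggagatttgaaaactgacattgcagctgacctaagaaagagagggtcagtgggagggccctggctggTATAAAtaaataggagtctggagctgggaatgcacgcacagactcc
The window of Ccl3 held a core of the myeloid factor PU.1 beginning 33 bases before the start site. Of the Ccr6 windows, the first held STAT sites and a PU.1 core, and the second held an NF-kB site. Cxcl12 had repeated GC boxes and Cxcl13 had a TATA box. Promoter windows were found for 40 of the 56 members (47 windows), against 32851 windows in all. The NF-kB motif was present in 21.3% of member windows and 7.25% of all windows, the TATA box (TATAAA) in 27.7% and 12.4%, the PU.1 core (GAGGAA) in 34.0% and 23.3%, and the AP-1 site (TGANTCA) in 12.8% and 6.75%. The GC box (GGGCGG) was less frequent, with 17.0% against 32.7%. The STAT site (TTCNNNGAA) was found in 8.51% and 7.02% and the interferon response core in 6.38% and 2.98%. These shares describe letters in a window and were not tested. Both strands were searched, and motifs may overlap.

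Fractalkine dominated the chemokine transcripts. Member counts made up 0.0371% to 0.0535% of the counts in a library, and of the summed CPM of all members Cx3cl1 held 56.4%, Cxcl12 16.1%, Cxcl14 16.1% and Cxcr7 3.52%. Only 12 members reached a mean of 1 CPM over the 11 libraries, 20 lay between 0.1 and 1 CPM, and 6 of the tested members lay below 0.1 CPM. Per kb of canonical transcript, Cx3cl1 was highest at a mean level of 79.0 CPM per kb, with libraries from 64.9 to 88.0, and it did not overlap the next gene. Cxcl14, a chemokine found in neurons as well as in epithelia, followed at 25.6 CPM per kb (23.4 to 27.5), and Cxcl12 at 13.2 CPM per kb (7.35 to 21.5). The ranges of Ccl27a (mean level 5.47 CPM per kb), Cxcr7 (5.32) and Ccl25 (4.12) overlapped one another, as did those of Cxcr4 (2.48), Ccl17 (2.03), Ccl6 (1.89) and Cxcl16 (1.67). Ccl9, a CC ligand of myeloid cells, was lower, at 0.738 CPM per kb. The positions in this order are least secure for Ccl27a and Cxcl16. In Ccl27a, 48.2% of the 50-base words also occur in another gene, mainly Ccl27al, and in Cxcl16, 84.8% of exon bases lie under Med11 or Zmynd15 on the opposite strand. The libraries were made strand-specific, but whether counting used the strand is not given in the sources used here.

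**Figure D1:**
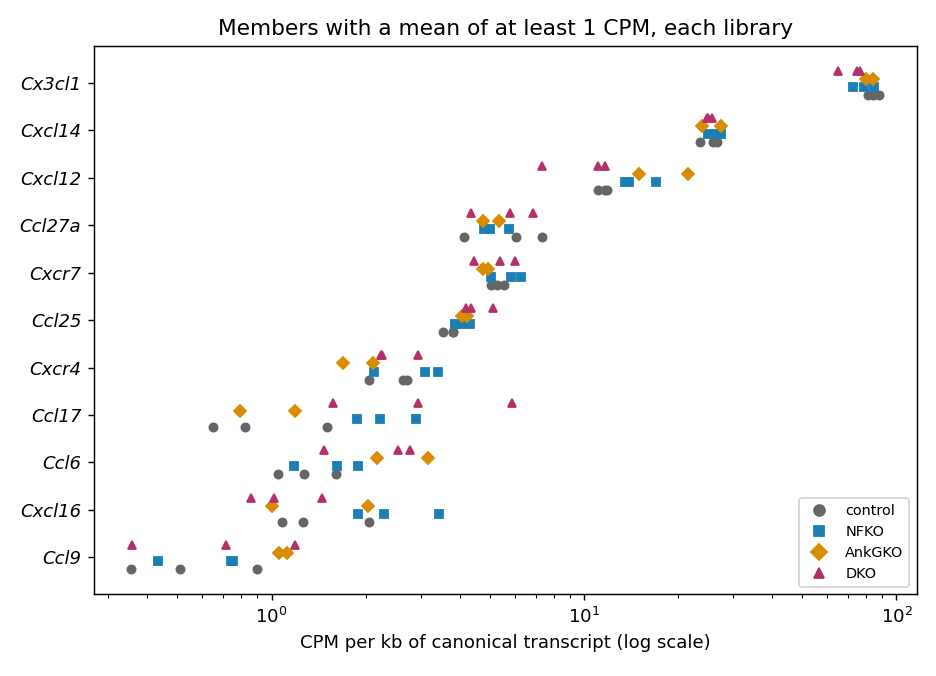
Levels of 11 of the 12 members with a mean of at least 1 CPM, in CPM per kb of canonical transcript on a log axis; each symbol is 1 library, coloured by genotype. Cx3cl1 lies between 64.9 and 88.0 CPM per kb in every library, apart from the other members shown, and Ccl9 lies lowest of those shown by its mean, 0.738 CPM per kb.

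Of the 56 rows, 18 were not expressed at this depth. The 9 rows at 0 in all 11 libraries were Ccl19, Ccl21a, Ccl21b, Ccl21c, Ccl26, Ccl27b, Ccl28, Cxcl15 and Cxcr1. Ccl19 and the Ccl21 genes encode the lymphoid homing ligands of Ccr7. Of the 50-base words of Ccl19, Ccl21b, Ccl21a and Ccl27b, 76.9%, 100%, 50.8% and 82.7% occur in another gene, whereas reads that did not align uniquely were not counted. A further 9 rows had 1 to 9 counts in all, the highest total being 8. These were the ligands Ccl1, Ccl8, Ccl20, Cxcl2 and Cxcl3 and the receptors Ccr1l1, Ccr3, Ccr4 and Ccr8. Cxcl17 and Cxcr6, with 10 and 19 counts in all, passed the minimum only through their highest genotype and had under 10 counts without it.

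Against control, the NFKO libraries had no member past the threshold. Among all 17557 genes tested, 64 were called (0.365%) at an adjusted p-value under 0.05 with a log2 fold change of at least 0.6 in either direction. At an unadjusted p under 0.05, 11 of 38 members were higher in NFKO and 0 were lower, beside 4.48% and 3.22% of all genes, and DESeq2 called 2 members (Cxcl13 and Ccr1) beside 0.906% of genes. Control and NFKO libraries with the same replicate number deviated together from their genotype means, and a fit of these 6 libraries with the replicate number as a block, chosen after seeing the data, called 3 members beside 1.45% of genes. They were Cxcl13, Cxcl16 and Ccr2 (log2 fold changes 3.47, 0.81 and 1.33, standard errors 0.51, 0.12 and 0.24, adjusted p-values 0.0113, 0.0114 and 0.0267 by edgeR's quasi-likelihood test with that block). With the block in the fit of all 4 genotypes no member was called. The fitted log2 fold change was positive for 34 of 38 members, beside 48.2% of all genes, with a median log2 fold change of 0.57 over the members tested and -0.0050 over all genes tested. That median was also 0.57 with Cxcl9, which had 0 counts in control, set at its lower bound. For the 12 members of at least 1 CPM the median was 0.18, with values from -0.18 for Ccl27a to 1.21 for Ccl17. In 13 members the NFKO libraries lay above every control library and in 0 members below, beside 7.42% and 6.51% of all genes.

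The member with the smallest p-value in NFKO was Cxcl13, the B cell attractant that binds Cxcr5. It had 49, 35 and 18 counts in NFKO 1 to 3 and 2, 2 and 3 counts in control 1 to 3, or 0.937, 0.674 and 0.334 CPM against 0.052, 0.0403 and 0.0714 CPM. No NFKO library overlapped a control library, although the NFKO libraries differed among themselves by more than the controls did. The log2 fold change was 3.52 (standard error 0.77, adjusted p = 0.0921 by edgeR's quasi-likelihood test, Benjamini-Hochberg adjusted), which misses the threshold, whereas DESeq2 called it. Pooled counts of 102 and 7 gave a 12-fold higher level with an exact 95% counting interval of 5.62 to 30.6. Cxcl13 had 20 and 2 counts in AnkGKO 1 and 2 and 1 to 5 counts in DKO, so AnkGKO 1 lay within the NFKO range and AnkGKO 2 and all DKO libraries below it. Its receptor Cxcr5 stayed between 0 and 9 counts in every library. The B and plasma cell list, with 8 of 11 genes in the table, summed to 1.45 to 2.03 CPM in NFKO and 1.26 to 1.49 CPM in control. The border macrophage list (10 of 10 genes) summed to 32.4 to 54.5 CPM in NFKO and 20.4 to 40.4 CPM in control, and the meningeal fibroblast list (12 of 12) to 1692 to 3647 CPM and 782 to 1995 CPM. The part of these cells in the Cxcl13 difference was not tested.

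Of the other ligands, Cxcl5, a neutrophil attractant, had 18, 17 and 25 counts in NFKO and 5, 6 and 8 in control (log2 fold change 1.36, standard error 0.37, adjusted p = 0.246 by edgeR's quasi-likelihood test, Benjamini-Hochberg adjusted). The monocyte attractants Ccl2 and Ccl7, chosen for mention after their values were seen, had 14, 14 and 16 counts and 7, 32 and 9 counts in NFKO against 2, 4 and 8 counts and 0, 4 and 0 counts in control. The groups did not overlap for either ligand. Cxcl9, an interferon-induced ligand of Cxcr3, had 7, 6 and 0 counts in NFKO and 0 in each control, at least 3.57-fold higher when the control group is set at 3 counts. Among receptors, Ccr1, which binds Ccl3 and related ligands on myeloid cells, had 29, 70 and 82 counts in NFKO against 16, 26 and 11 in control (log2 fold change 1.5, standard error 0.41, adjusted p = 0.270 by edgeR's quasi-likelihood test, Benjamini-Hochberg adjusted). Ccr2, the receptor of Ccl2 and Ccl7, had 54, 122 and 77 counts against 14, 41 and 30, again without overlap. Cxcl16 was at 5.64, 10.3 and 6.86 CPM in NFKO 1 to 3 and 3.22, 6.12 and 3.79 CPM in control 1 to 3, overlapping as groups and higher in NFKO within each of the 3 same-number pairs. The list of monocyte and neutrophil genes summed to 17.7, 39.2 and 42.3 CPM in NFKO and 20.3, 16.9 and 7.21 CPM in control, with none of its 12 tested genes called, and its part in these differences was not tested.

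**Figure D2:**
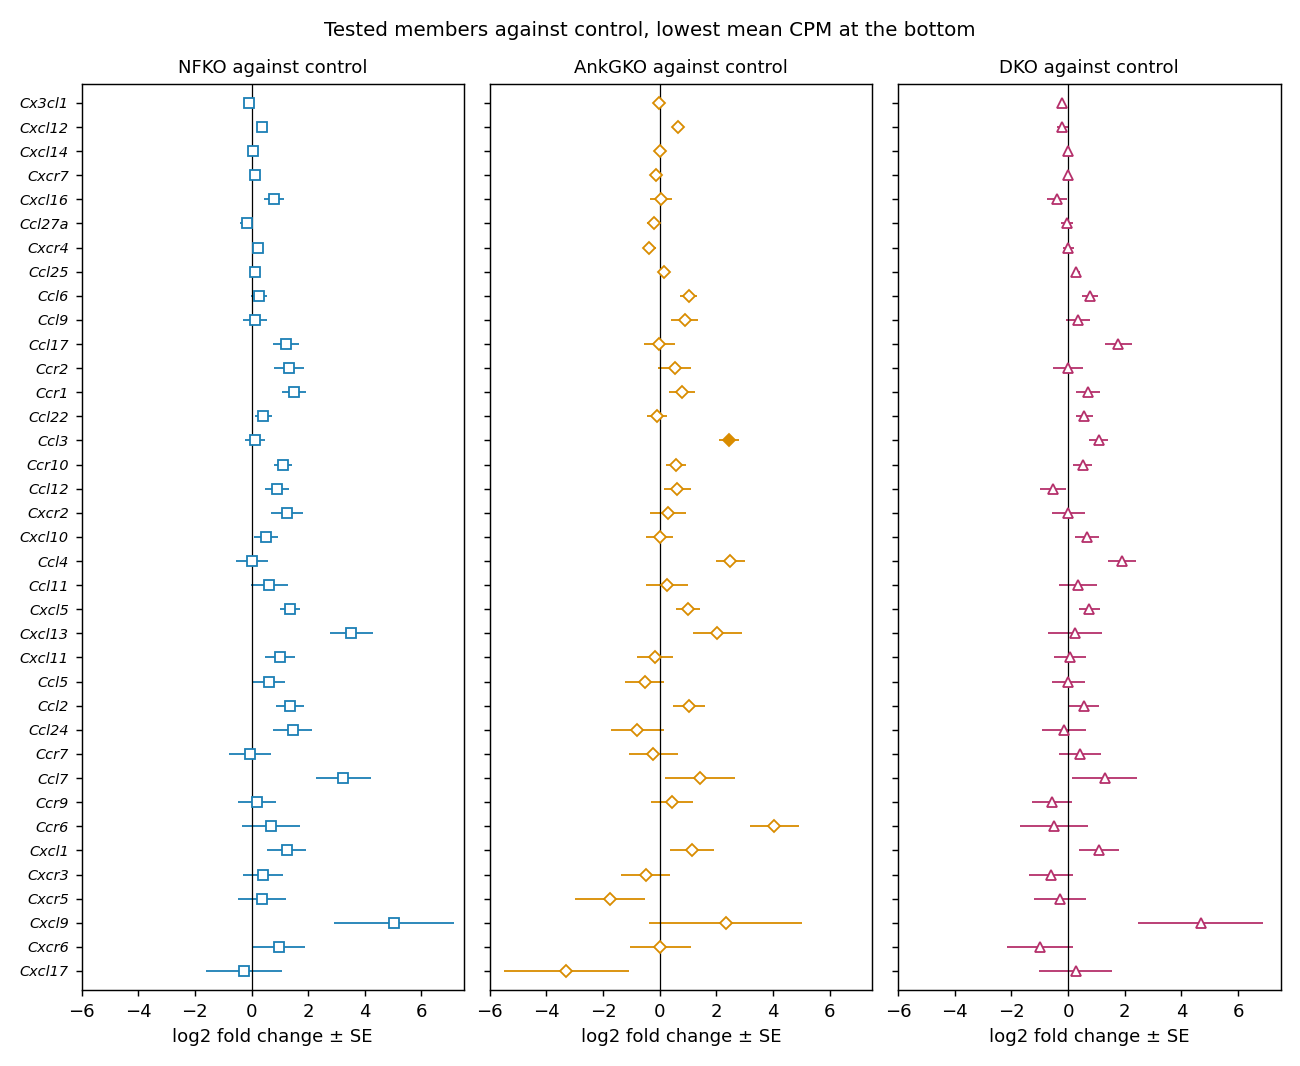
Fitted log2 fold changes with 1 standard error of 37 of the 38 tested members against control, in NFKO, AnkGKO and DKO, ordered by mean CPM from Cxcl17 at the bottom to Cx3cl1 at the top. The filled symbol marks the only call, Ccl3 in AnkGKO at 2.45; members near the bottom have few counts and wide errors, and the 3 panels share the same control libraries.

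In AnkGKO, Ccl3 (macrophage inflammatory protein 1 alpha) rose and was the only member called, beside 29 genes of 17557 (0.165%). Ccl3 lies on chromosome 11 from 83538670 to 83540191, minus strand, on GRCm39. It had 91 and 56 counts in AnkGKO 1 and 2 (1.88 and 1.22 CPM), and 15, 11 and 10 counts in control 1 to 3 (0.39, 0.222 and 0.238 CPM). In NFKO the counts were 16, 15 and 17 (0.306, 0.289 and 0.316 CPM), and in DKO 18, 32 and 34 (0.420, 0.747 and 0.619 CPM). Both AnkGKO libraries therefore lay above the other 9, the NFKO libraries lay within the control range, and every DKO library lay between control and AnkGKO. The mean was 1.55 ± 0.467 CPM over the AnkGKO libraries (SD, n = 2), against 0.595 ± 0.165 CPM for DKO, 0.304 ± 0.0137 CPM for NFKO and 0.283 ± 0.0928 CPM for control (SD, n = 3 each). The log2 fold change of AnkGKO against control was 2.45 (standard error 0.36, adjusted p = 0.0137 by edgeR's quasi-likelihood test, Benjamini-Hochberg adjusted). Pooled counts of 147 and 36 gave a 5.62-fold higher level, with an exact 95% counting interval of 3.88 to 8.34. Ccl3 also passed the test over the 4 genotypes (adjusted p = 0.00969 by the same edgeR test), as did Ccr6 (adjusted p = 0.0476), and these were 2 of 38 members beside 0.723% of genes. DESeq2 called 8 members in that test, beside 6.48% of genes.

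The Ccl3 call in AnkGKO was lost in several settings. Without control 2, without control 3 or without AnkGKO 1 the count of members called was 0, and it was 0 with Xist as a covariate, with the replicate block and with only the 2 genotypes in the fit. The log2 fold change stayed between 2.11 and 2.84 in all 21 alternatives, with adjusted p-values from 3.02e-06 (DESeq2) to 0.202 and edgeR's quasi-likelihood test elsewhere. In the test over the 4 genotypes Ccl3 missed the threshold with the replicate block (adjusted p = 0.0532 by edgeR's quasi-likelihood test) and without AnkGKO 1 (0.126), and passed in the other 18 alternatives run. Gene model Gm53692 covers 35.6% of the exon bases of Ccl3 on the opposite strand, and reads from the 2 cannot be told apart if counting ignored the strand.

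Ccl4 (macrophage inflammatory protein 1 beta), which lies 13192 bases from Ccl3, had 33 and 25 counts in AnkGKO, 4, 7 and 3 in control, 2, 8 and 7 in NFKO and 12, 23 and 22 in DKO. The AnkGKO libraries (0.681 and 0.543 CPM) lay above all others and the DKO libraries (0.28 to 0.537 CPM) above all control and NFKO libraries. Its log2 fold change was 2.49 in AnkGKO against control (standard error 0.52, adjusted p = 0.118 by edgeR's quasi-likelihood test, Benjamini-Hochberg adjusted), which DESeq2 called. Over the 4 genotypes the adjusted p was 0.0568 by edgeR's quasi-likelihood test, just outside the threshold that Ccr6 passed at 0.0476. Ccl6 and Ccl9, myeloid ligands of the same cluster, did not follow in all libraries. Ccl6 had 221 and 144 counts in AnkGKO against 58, 115 and 77 in control (log2 fold change 1.02, adjusted p = 0.460 by the same edgeR test), and Ccl9 had 154 and 155 against 59, 134 and 45. For both, each AnkGKO library lay above each control library, while DKO 2 and DKO 3 (Ccl6) and DKO 2 (Ccl9) reached the AnkGKO range.

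Ccr1, which binds Ccl3, did not pass the test in AnkGKO. It was at 0.743 and 0.652 CPM against 0.416, 0.523 and 0.262 CPM in control. The microglia list, all 16 genes of which were tested, summed to 758 and 807 CPM in AnkGKO, 564 to 704 CPM in control, 665 to 726 CPM in NFKO and 602 to 780 CPM in DKO. Its genes had a median log2 fold change of 0.32 in AnkGKO against control and none was called by edgeR or DESeq2 in that comparison. At an unadjusted p under 0.05, 7 were higher and 0 lower, beside 3.21% and 2.18% of all genes. Gene by gene, both AnkGKO libraries lay above every control library for 7 of the 16, among them P2ry12, Cx3cr1 and Csf1r, beside 11.7% of all genes. The other 9, among them Tmem119 (19.6 and 22.4 CPM against 19.4 to 23.4) and C1qa (66.4 and 54.0 against 41.5 to 56.1), overlapped control. The part of microglia in the Ccl3 and Ccl4 differences was not tested.

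**Figure D3:**
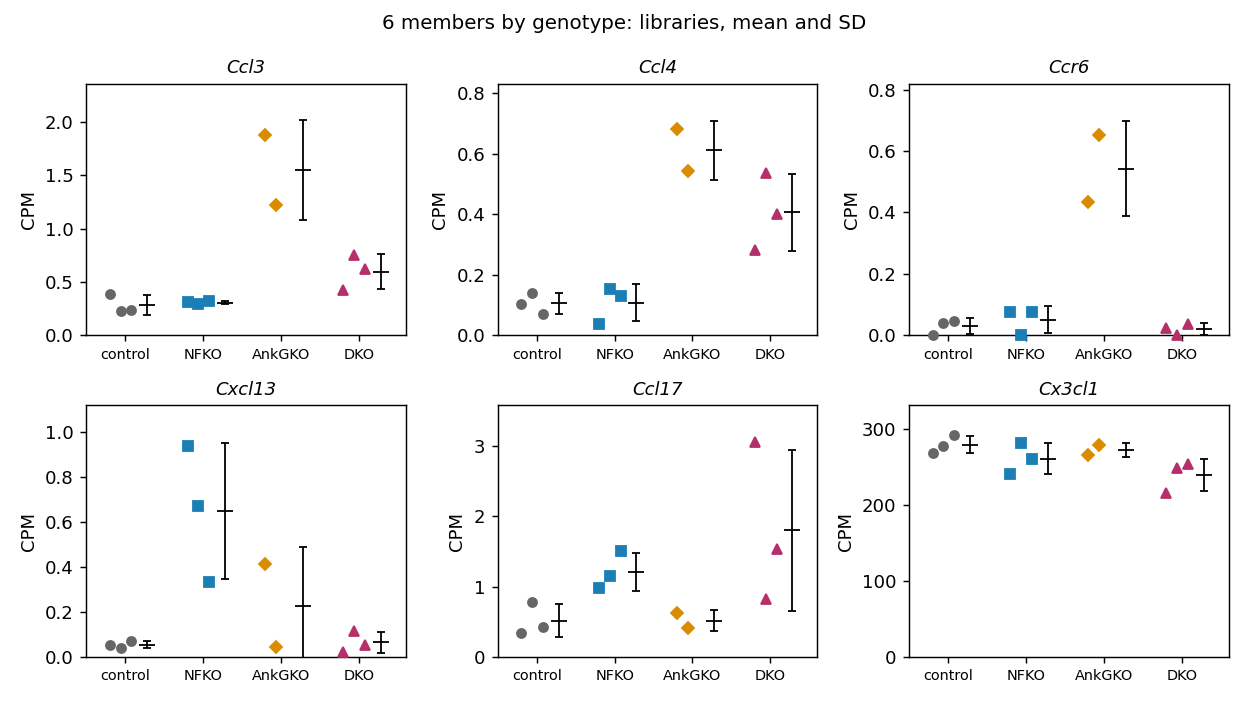
CPM of Ccl3, Ccl4, Ccr6, Cxcl13, Ccl17 and Cx3cl1 in each library by genotype, with the mean and SD of each genotype beside its points, on linear axes from 0. Ccl3, Ccl4 and Ccr6 are highest in both AnkGKO libraries, Cxcl13 in NFKO 1 and NFKO 2, and Ccl17 in DKO 1 (3.06 CPM), while Cx3cl1 differs little (215 to 292 CPM).

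Ccr6, the receptor of Ccl20 on B cells and subsets of T cells, had its highest counts in AnkGKO. It lies on chromosome 17 from 8454869 to 8475973 on the plus strand (GRCm39). It had 21 and 30 counts in AnkGKO 1 and 2 (0.433 and 0.652 CPM), 0, 2 and 2 counts in control, 4, 0 and 4 in NFKO and 1, 0 and 2 in DKO. The AnkGKO libraries stood above all other 9, in which Ccr6 was at or near the limit that a count of 0 allows. The fitted log2 fold change against control was 4.04 (standard error 0.87, adjusted p = 0.132 by edgeR's quasi-likelihood test, Benjamini-Hochberg adjusted), and DESeq2 called it. Pooled counts were 51 in AnkGKO and 4 in control, a 17.6-fold higher level with an exact 95% counting interval of 6.45 to 66.9. In the test over the 4 genotypes Ccr6 missed the threshold when any 1 of 9 libraries was left out, and passed without NFKO 2 or DKO 2 (adjusted p from 0.0298 to 0.300 over the 11 fits by the same edgeR test). It also missed it with the replicate block (adjusted p = 0.105), with Xist (0.323) or granule cell genes (0.106) as a covariate and without both libraries richest in Pcp2 (0.115). Its ligand Ccl20 had 2 counts over all libraries, neither in AnkGKO. The T and NK cell list (13 of 14 genes in the table) summed to 1.88 and 1.24 CPM in AnkGKO and 1.38 to 2.21 CPM in the other genotypes, and the B and plasma cell list to 1.30 and 0.826 CPM against 0.747 to 2.03 CPM. The part of these cells in the Ccr6 difference was not tested. Gene model Gm33799 covers 46.7% of the Ccr6 exon bases on the opposite strand, and without knowledge of the strand setting its reads cannot be told apart from those of Ccr6.

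In all, 7 members were higher in AnkGKO than in control and 0 were lower at an unadjusted p under 0.05, beside 3.21% and 2.18% of all genes. They were Ccl3, Ccl4, Ccl6, Ccr6, Cxcl5, Cxcl12 and Cxcl13. DESeq2 called 4 members (Ccl3, Ccl4, Ccr6 and Cxcl12) beside 0.581% of genes. The AnkGKO libraries lay above every control library for 12 members and below for 1 (Cxcr7, 15.1 and 14.6 against 15.5 to 17.1 CPM), beside 11.7% and 12.3% of all genes. The median log2 fold change was 0.26 over the members tested, or 0.20 with the members at 0 in a group set at their bound, against -0.0050 over all genes. For the 12 members of at least 1 CPM the median was 0.036.

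In DKO, no member was called against control, where 4 genes in all were called (0.0228%). At an unadjusted p under 0.05, 5 members were higher and 1 was lower, beside 4.04% and 3.74% of genes, and DESeq2 called Ccl17 beside 0.251% of genes. Ccl17, a ligand of Ccr4 made by dendritic cells, had 131, 35 and 84 counts in DKO 1 to 3 and 13, 39 and 18 counts in control 1 to 3, or 3.06, 0.817 and 1.53 CPM against 0.338, 0.785 and 0.429 CPM. The groups did not overlap, but DKO 2 was close to control 2. Its log2 fold change was 1.78 (standard error 0.47, adjusted p = 0.528 by edgeR's quasi-likelihood test, Benjamini-Hochberg adjusted), and leaving out 1 library at a time gave 1.17 to 2.22. The NFKO libraries were also above every control library for Ccl17, at 0.976, 1.16 and 1.5 CPM, whereas the AnkGKO libraries were at 0.619 and 0.413 CPM. Its receptor Ccr4 had 4 counts over all libraries.

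Ccl4 and Ccl3 were the other members with the smallest p-values in DKO, with log2 fold changes of 1.90 (standard error 0.50) and 1.08 (standard error 0.34) and adjusted p-values of 0.528 and 0.581 by edgeR's quasi-likelihood test, Benjamini-Hochberg adjusted. The only member lower at unadjusted p under 0.05 was Cx3cl1, which neurons express as a membrane-bound or shed ligand. It was at 215, 249 and 254 CPM in DKO and 269, 278 and 292 CPM in control, without overlap (log2 fold change -0.22, standard error 0.078, adjusted p = 0.602 by the same edgeR test). The NFKO and AnkGKO libraries of Cx3cl1, at 241 to 281 and 265 to 279 CPM, overlapped the controls. Its receptor on microglia, Cx3cr1, which the naming rule leaves out, was at 58.5 ± 11.2 CPM in DKO and 48.8 ± 4.29 CPM in control (SD, n = 3 each) and was not called (adjusted p = 0.629 by the same edgeR test). In 7 members the DKO libraries lay above every control library and in 1 below, beside 7.65% and 6.8% of all genes.

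DKO differed from NFKO by lower fitted levels of most members, with 27 of 38 log2 fold changes negative beside 49.9% of all genes. No member was called beside 108 genes (0.615%). By unadjusted p under 0.05, 2 members (Ccl3 and Ccl4) were higher and 8 were lower in DKO, beside 7.86% and 8.29% of genes. DESeq2 called Ccl4, Cxcl13 and Cxcl16 beside 2.38% of genes. Cxcl13 was at 0.0233, 0.117 and 0.0546 CPM in DKO and at 0.937, 0.674 and 0.334 CPM in NFKO (log2 fold change -3.28, standard error 0.74, adjusted p = 0.0701 by edgeR's quasi-likelihood test, Benjamini-Hochberg adjusted). Cxcl16, the ligand of Cxcr6, was at 3.06, 4.34 and 2.57 CPM in DKO and at 5.64, 10.3 and 6.86 CPM in NFKO, without overlap (log2 fold change -1.20, standard error 0.35, adjusted p = 0.148 by the same test). Ccl4 went the other way (log2 fold change 1.89, standard error 0.48, adjusted p = 0.107 by the same edgeR test). Of the 38 members, 2 had DKO libraries above every NFKO library and 11 below, beside 9.32% and 10% of all genes. The highest library of Cxcl16, NFKO 2, was also the one with the highest sums of the meningeal fibroblast and skeletal muscle lists, and their part in the difference was not tested.

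Between DKO and AnkGKO, again no member was called beside 30 genes (0.171%). At an unadjusted p under 0.05, Ccl17 was higher in DKO and 5 members (Ccl3, Ccl12, Ccr6 and Cxcl12 among them) were lower, beside 4.01% and 4.47% of genes. DESeq2 called 4 members beside 0.564% of genes, namely Ccl3, Ccl17, Ccr6 and Cxcl12. Ccr6 had the smallest p-value (fitted log2 fold change -4.52, standard error 0.90, adjusted p = 0.102 by edgeR's quasi-likelihood test, Benjamini-Hochberg adjusted) from 3 counts in DKO and 51 in AnkGKO. Ccl3 followed at -1.37 (standard error 0.34, adjusted p = 0.270 by the same test). Over members, 5 had DKO libraries above both AnkGKO libraries and 8 below, beside 12.4% and 11.3% of genes.

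Cxcl12, which acts on endothelial and neural cells and on leukocytes through Cxcr4, varied 2.93-fold between its lowest and highest library, against 1.36-fold for Cx3cl1 and 1.18-fold for Cxcl14. It was at 67.2, 66.2 and 62.8 CPM in control 1 to 3, at 79.0, 96.3 and 76.5 CPM in NFKO 1 to 3, at 84.8 and 121.9 CPM in AnkGKO 1 and 2 and at 41.7, 66.0 and 62.9 CPM in DKO 1 to 3. Every single-knockout library lay above every control library, and every DKO library lay below every single-knockout library, while DKO and control overlapped. The log2 fold change was 0.36 in NFKO (standard error 0.18), 0.66 in AnkGKO (standard error 0.20) and -0.20 in DKO (standard error 0.18) against control. For DKO against AnkGKO it was -0.86 (standard error 0.20, adjusted p = 0.271 by edgeR's quasi-likelihood test, Benjamini-Hochberg adjusted), with a DESeq2 adjusted p of 0.000482. Leaving out 1 library at a time gave values from -0.59 to -1.10.

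The receptors of Cxcl12 did not show this pattern. Cxcr4, its signalling receptor, was at 4.5 ± 0.664 CPM in control, 5.25 ± 1.22 in NFKO and 4.52 ± 0.733 in DKO (SD, n = 3 each) and at 3.46 ± 0.532 in AnkGKO (SD, n = 2). Its log2 fold changes against control were 0.22, -0.38 and 0.0066 in NFKO, AnkGKO and DKO, each with an overlap of the groups and normal 95% intervals of -0.17 to 0.61, -0.82 to 0.068 and -0.39 to 0.40. The scavenger Cxcr7 varied little, from 13.7 to 19.4 CPM over all libraries. Some vascular genes had libraries in an order like that of Cxcl12, and most of those listed did not. Kdr, the endothelial receptor of VEGF, was at 16.9, 22.4 and 15.9 CPM in control, 23.6, 29.2 and 21.6 CPM in NFKO, 25.0 and 34.2 CPM in AnkGKO and 11.9, 14.8 and 14.4 CPM in DKO. It fell in DKO against AnkGKO (log2 fold change -1.11, adjusted p = 0.0460 by edgeR's quasi-likelihood test, Benjamini-Hochberg adjusted) and against NFKO (-0.86, adjusted p = 0.0452). Rgs5, a pericyte gene, fell against AnkGKO (-0.86, adjusted p = 0.00805), and the interactions of Kdr (-1.54), Rgs5 (-1.14) and the pericyte gene Pdgfrb (-0.73) passed with adjusted p-values of 0.0193, 0.00457 and 0.0282 by the same edgeR test. These were 1 of 12 endothelial and 2 of 8 pericyte and smooth muscle genes listed, and no other gene of either list was called by edgeR in the comparisons run, while DESeq2 also called Cdh5, lower in DKO than in NFKO. The full order, with every single-knockout library above every control library and every DKO library below every single-knockout library, was found for 2 of the 8 (Rgs5 and Pdgfrb) and 0 of the 12. It was not particular to vascular genes, as 2 of the 16 microglia genes (Sall1 and Olfml3) also had it. The share of all genes with this order was not counted. The smooth muscle genes differed from Cxcl12 in AnkGKO, where it was highest. Acta2, an actin of smooth muscle, was at 17.8 and 13.4 CPM in AnkGKO and 10.9 to 42.6 CPM in control, and the AnkGKO means of Acta2, Myh11, Tagln and Cnn1 (15.6, 17.2, 11.1 and 0.665 CPM) were below the control means (24.5, 20.8, 17.3 and 1.29 CPM), with overlap of the libraries. The glucose transporter gene Slc2a1 of the endothelial list was at 245, 236 and 171 CPM in DKO and 174, 186 and 212 CPM in NFKO. The summed endothelial list was at 579 to 650 CPM in control, 590 to 718 in NFKO, 621 and 656 in AnkGKO and 525 to 605 in DKO. The DKO sums lay below both AnkGKO sums, and the other pairs of genotypes overlapped. Against AnkGKO, all DKO libraries were lower for 6 of the 12 genes and higher for 0, beside 11.3% and 12.4% of all genes. The pericyte and smooth muscle list summed to 128 to 215, 171 to 306, 182 and 191, and 127 to 137 CPM in the same order. Against NFKO, all DKO libraries were lower for 6 of its 8 genes and higher for 0, beside 10% and 9.32% of all genes. The part of vascular cells in the Cxcl12 values was not tested.

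**Figure D4:**
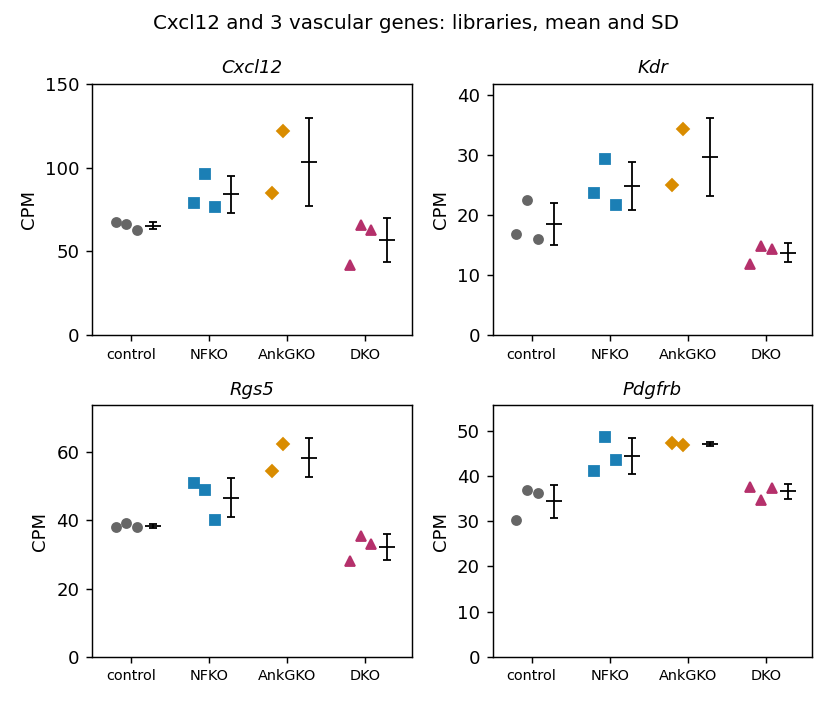
CPM of Cxcl12, Kdr, Rgs5 and Pdgfrb in each library by genotype, with mean and SD, on linear axes from 0. Each DKO library of Cxcl12, Kdr, Rgs5 and Pdgfrb lies below each single-knockout library, and AnkGKO 2 has the highest Cxcl12 value, 121.9 CPM.

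The interaction of the knockouts, the log2 effect of losing both proteins less the sum of both single effects, was negative for 29 of 38 members, beside 48.6% of all genes. No member passed the threshold, which 93 genes passed (0.53%). By unadjusted p under 0.05, 13 members had a negative and 0 a positive interaction, beside 5.63% and 4.69% of genes, and the median was -0.77 over members and 0.0086 over all genes. The 12 members of at least 1 CPM had a median interaction of -0.088. DESeq2 called 3 members (Ccr6, Cxcl12 and Cxcl13) beside 1.81% of genes. Cxcl13 had the smallest p-value (interaction -5.32, standard error 1.14, adjusted p = 0.0835 by edgeR's quasi-likelihood test, Benjamini-Hochberg adjusted), then Cxcl12 (-1.22, standard error 0.27, adjusted p = 0.125) and Ccr6 (-5.20, standard error 1.42, adjusted p = 0.190). The interaction uses all 4 genotypes, so the control and single-knockout libraries that entered the comparisons above also set its values.

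The ligands and receptors of an axis often differed in whether they could be measured. Ccl25 (3.72 CPM over all libraries) and its receptor Ccr9 (0.126 CPM), Ccl27a (4.99 CPM) and its receptor Ccr10 (0.467 CPM), and Cxcl16 (4.998 CPM) and its receptor Cxcr6 (0.0357 CPM) are examples of a ligand at several CPM beside a receptor with few counts. Ccl22, which shares Ccr4 with Ccl17, was at 0.634 CPM. The interferon-induced ligands Cxcl9, Cxcl10 and Cxcl11, at 0.0427, 0.368 and 0.229 CPM, and their receptor Cxcr3, at 0.0703 CPM, were low in every genotype and none was called. Cxcr2, the receptor of Cxcl1 and Cxcl5 on neutrophils, had 24, 20 and 67 counts in NFKO 1 to 3 (0.459, 0.385 and 1.25 CPM) and 11, 13 and 14 in control (0.286, 0.262 and 0.333 CPM). The groups did not overlap, and NFKO 3 stood far above the other 10 libraries, which had 7 to 25 counts. Its log2 fold change in NFKO was 1.24 (standard error 0.56, adjusted p = 0.640 by edgeR's quasi-likelihood test, Benjamini-Hochberg adjusted). The summed monocyte and neutrophil list was highest in another library, DKO 2 (118 CPM against 7.21 to 42.3 CPM), where Cxcr2 had 22 counts. Of its genes, Lcn2 and Mmp8 were highest in NFKO 3 (9.85 and 1.5 CPM, against 6.91 and 1.17 CPM in DKO 2). The other genes of the list were highest in DKO 2, and the part of these cells in the Cxcr2 values was not tested.

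Downstream and regulatory genes of the pathway were examined as a list of 44 that excluded the members. Of these, 41 were in the table and 39 were tested, among them Cx3cr1, kinases such as Lyn and Src, G protein subunits and Stat genes. By edgeR no gene of this list was called in any comparison, and DESeq2 called 1 (Dpp4, which trims chemokines) in NFKO against control, 3 (Cd74, Dpp4 and Pf4, all lower) in DKO against NFKO and Dpp4 for the interaction. By unadjusted p under 0.05, 6 were higher and 1 lower in NFKO than in control, 7 and 0 in AnkGKO and 8 and 0 in DKO, beside 7.69%, 5.39% and 7.77% of all genes in either direction. Their medians of the log2 fold change were 0.074, 0.070 and 0.059. Cytokines and transcription factors that induce chemokines (30 genes listed, 29 tested) likewise had 0 calls by edgeR, against 1 (Tlr2) in AnkGKO against control and 1 (Irf7, negative) for the interaction by DESeq2, with 5, 3 and 2 genes higher and 0 lower at unadjusted p under 0.05.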

How the data were processed

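Poly(A) RNA-seq libraries from 3 control, 3 NFKO, 2 AnkGKO and 3 DKO mice, all labelled batch 1 and grouped by their labels, were analysed. The labels give strand-specific 100 bp single-end reads and an RNA integrity of at least 8.2, while the study's methods describe paired-end reads and 3 AnkGKO samples. Per the submitters' processing notes and the study's methods, the authors trimmed reads with Trimmomatic 0.39, aligned them to GRCm39 with STAR 2.7.11a and deposited raw counts per gene. Between 32.5% and 34.3% of reads were not uniquely aligned and 9.23% to 10.4% fell in no gene, and neither entered the counts. The authors' second table, the counts divided by size factors, was not used.

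Genes with at least 10 counts in all were fitted with edgeR 4.0.16 (limma 3.58.1, R 4.3.3), using TMM normalization and robust quasi-likelihood over the 4 genotypes with Benjamini-Hochberg adjustment over all genes. A call needed an adjusted p under 0.05 and a log2 fold change of at least 0.6 in either direction, except for the test over the 4 genotypes, which used the adjusted p alone. DESeq2 1.42.0 with a local fit was an alternative. P-values measure the spread between the biological replicates as labelled. CPM used TMM-adjusted library sizes, and 3 counts were taken as the floor. The comparisons against control share the control libraries. Gene positions and lengths came from GENCODE vM39 on GRCm39, and promoter windows from RefSeq on GRCm38.p6. The scripts were tested on simulated data. Replicate numbers, which the labels do not tie to a litter or day, were checked by the correlation of same-number libraries' deviations from their genotype means. All 3 control and NFKO pairs were over 0.1 (0.22 to 0.57), so these numbers were taken to pair the libraries from the data alone. The 6 other pairings of these genotypes were below 0. Deviations sum to 0 within a genotype, so positive same-number pairs push the others down, and these add no separate support. The highest value (0.57) joined control 1 and NFKO 1, the libraries richest in Pcp2, so a shared litter or day cannot be told apart from a shared dissection. Of the other 12 same-number pairs, 4 were over 0.1 (-0.49 to 0.35 in all), and no other 2 genotypes had all pairs over it.

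The members and gene lists were chosen with earlier results of these data known. Named members are those with a mean of at least 1 CPM, those called, the 3 with the smallest p in each comparison of 2 genotypes, and Cxcr4. Other members were chosen after their values were seen, and other genes are named only where called or as marker checks. The values of 1 member are not reported here, and it is counted in the totals.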

Additional observations from a re-analysis of the deposited data

Results flagged for a closer look

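Cxcl12, Ccl2, Ccr10 and Cxcl5 were singled out because the effect of losing AnkG pointed in opposite directions with and without NF186, with no overlap between the libraries compared on either side. Against control, both AnkGKO libraries were higher, and against NFKO, all DKO libraries were lower. Each side alone was met by 11.7% and 10% of all genes, and the share meeting both was not counted. The interaction uses the same libraries that chose these members, so it is no separate support. The interaction of the knockouts was -1.22 for Cxcl12 (standard error 0.27, adjusted p = 0.125), -1.82 for Ccl2 (standard error 0.74, adjusted p = 0.425), -1.16 for Ccr10, a receptor of Ccl27a (standard error 0.48, adjusted p = 0.428), and -1.60 for Cxcl5 (standard error 0.54, adjusted p = 0.310), all by edgeR's quasi-likelihood test, Benjamini-Hochberg adjusted, so none passed the threshold. Ccl2 had 10 and 11 counts in AnkGKO, 2, 4 and 8 in control, 8, 9 and 5 in DKO and 14, 14 and 16 in NFKO. Ccr10 had 22 and 21, 14, 18 and 8, 18, 23 and 20, and 33, 31 and 41 counts in the same order of genotypes. Cxcl5 had 16 and 12, 5, 6 and 8, 12, 9 and 14, and 18, 17 and 25 counts. Apart from Cxcl12, these members rest on few counts in each library.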

How the results depend on the processing

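Counts of members called depended on the tool and on single libraries. With DESeq2 they were 2 instead of 0 in NFKO, 4 instead of 1 in AnkGKO and 1 instead of 0 in DKO against control, 3 and 4 instead of 0 in DKO against NFKO and AnkGKO, 3 instead of 0 for the interaction and 8 instead of 2 over the 4 genotypes. The cause was not tested. With only the 2 genotypes in the fit, Cxcl13 was called in NFKO (1 member) and 0 members in AnkGKO against control. Xist as a covariate gave 0 in AnkGKO and 1 over the 4 genotypes, and granule cell genes as a covariate and leaving out both libraries with the most Pcp2 each gave 1 over the 4 genotypes. Leaving out NFKO 2 and DKO 2 together, an alternative chosen after seeing the data, gave 2 members in AnkGKO (Ccl3 and Ccr6). With the replicate block over all 4 genotypes 0 members were called in AnkGKO and 0 over the 4 genotypes, and no other count changed. The block over control and NFKO alone gave 3 members in NFKO instead of 0. Outside control and NFKO the same-number libraries share only a number. Leaving out each library in turn gave 0 to 1 members in NFKO and in AnkGKO against control, 0 in DKO against control, 0 to 1 in DKO against NFKO, in DKO against AnkGKO and for the interaction, and 1 to 2 over the 4 genotypes. Cxcl13 was the member called in NFKO against control and DKO against NFKO without AnkGKO 1 or AnkGKO 2 and for the interaction without AnkGKO 2, and Ccr6 in DKO against AnkGKO without NFKO 2. The log2 fold change of Cxcr4 in DKO against control, 0.0066 as reported, turned to -0.0013 without a filter on low counts, -0.051 with Xist as a covariate, -0.14 without NFKO 2 and DKO 2, -0.11 without control 3, -0.00097 without NFKO 3, -0.00098 without AnkGKO 2 and -0.14 without DKO 2 (from -0.14 to 0.077 over the 11 libraries left out in turn). The other 23 fold changes tried (named members and interactions) kept their direction in every alternative, but not always their size. Over the alternatives the interaction of Ccl2 ran from -2.47 to -0.11, that of Cxcl5 from -1.83 to -0.87 and that of Ccr10 from -2.37 to -0.92. Members under 0.1 CPM lie near the limit of 3 counts, where depth bounds what can be seen.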
